A study of Homo sapiens with 9 samples.

Results

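The 7 genes described here encode enzymes of cholesterol synthesis: ACAT2, HMGCS1, IDI1, SQLE, MSMO1, EBP and DHCR7. They were found by symbol in the platform's annotation, each on 1 row of the array, among 14884 named genes. They were chosen by their measured levels, which are well above the dim end of the array, with earlier results of these data known, so their levels and their calls are a description and are not independent evidence of a pathway response. HT-29 cells, an established human colon cancer line, were cultured with rosemary extract, with carnosic acid, a phenolic diterpene of rosemary, or with the vehicle alone, a group that the labels call untreated. Each group had 3 arrays from 3 biological replicates, harvested after 24 h. All 3 groups share the same line, medium and serum, so the data describe 1 line. The labels state no concentration for the extract or for carnosic acid. The study's title names the unfolded protein response and cholesterol metabolism.

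Cholesterol is built from acetyl-CoA in the cytosol and the endoplasmic reticulum. Early enzymes make mevalonate and isoprene units, the squalene step commits these units to sterols, and late enzymes trim and rearrange the sterol ring. When sterols in the endoplasmic reticulum run low, SCAP escorts the transcription factor SREBP-2 to the Golgi, where it is cut and freed to switch on genes of the pathway. INSIG proteins hold SCAP back when sterols are plentiful. SREBP-2 binds sterol regulatory elements and commonly acts beside NF-Y, which binds CCAAT boxes, and Sp1, which binds GC boxes.

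The promoters of the genes are shown first because these 3 motifs are known to act in the sterol control of the pathway. RefSeq windows on GRCh38.p14 were matched for 5 of the 7 genes, with 9 start sites in all. ACAT2 and SQLE were not matched. For each gene below, the 250 bases before a start are printed 5′ to 3′ on the gene's strand, in each case the start furthest upstream whose window holds a CCAAT match. Capitals mark CCAAT or, where the box lies on the opposite strand, ATTGG.
HMGCS1 (chr5:43313413-43313662, minus strand): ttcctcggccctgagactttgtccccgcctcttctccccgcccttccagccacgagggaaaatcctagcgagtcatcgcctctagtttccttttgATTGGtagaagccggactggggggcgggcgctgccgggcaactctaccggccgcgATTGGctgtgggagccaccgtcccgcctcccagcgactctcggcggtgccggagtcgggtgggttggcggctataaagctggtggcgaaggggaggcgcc
IDI1 (chr10:1049120-1049369, minus strand): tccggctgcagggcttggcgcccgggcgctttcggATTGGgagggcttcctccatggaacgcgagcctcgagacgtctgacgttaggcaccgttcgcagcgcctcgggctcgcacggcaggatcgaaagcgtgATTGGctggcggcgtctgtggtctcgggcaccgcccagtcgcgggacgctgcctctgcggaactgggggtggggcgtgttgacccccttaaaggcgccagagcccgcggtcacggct
MSMO1 (chr4:165327419-165327668, plus strand): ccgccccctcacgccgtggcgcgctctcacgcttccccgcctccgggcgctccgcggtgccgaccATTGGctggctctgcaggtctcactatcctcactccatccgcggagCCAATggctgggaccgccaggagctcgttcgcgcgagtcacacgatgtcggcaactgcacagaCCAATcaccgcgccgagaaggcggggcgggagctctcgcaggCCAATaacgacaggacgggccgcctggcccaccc
EBP (chrX:48521558-48521807, plus strand): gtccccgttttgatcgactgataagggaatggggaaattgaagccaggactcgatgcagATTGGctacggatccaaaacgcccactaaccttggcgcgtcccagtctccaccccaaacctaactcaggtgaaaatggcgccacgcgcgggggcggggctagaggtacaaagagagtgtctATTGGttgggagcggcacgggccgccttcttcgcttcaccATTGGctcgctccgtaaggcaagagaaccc
DHCR7 (chr11:71448394-71448643, minus strand): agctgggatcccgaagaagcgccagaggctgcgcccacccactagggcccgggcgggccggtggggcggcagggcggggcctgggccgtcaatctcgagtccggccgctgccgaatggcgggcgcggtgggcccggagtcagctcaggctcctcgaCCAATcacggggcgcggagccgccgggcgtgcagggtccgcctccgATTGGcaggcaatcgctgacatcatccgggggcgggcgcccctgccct

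Each of the 5 printed windows held at least 2 CCAAT matches. MSMO1 had 4, EBP had 3, and HMGCS1, IDI1 and DHCR7 had 2 each. Counting every start site, 6 of 9 windows (66.7%) of these 5 genes held at least 2, against 9.53% of all 35116 windows. In a window of IDI1 that is not printed, a pair of these matches overlaps. At least 1 CCAAT match stood in 32.0% of all windows. Among the other enzymes of the pathway, 4 of 16 windows held at least 2, from 4 of the 13 genes with a window. The GC box, GGGCGG on either strand, was found in 8 of the 9 windows and in 42.6% of all windows. The sterol regulatory element was searched as TCACNCCAC on both strands and matched 0 of the 9 windows, against 0.88% of all windows. A match describes the letters only, and no match says only that these letters are not in these windows. The printed windows were chosen for a CCAAT match, and 1 other window each of HMGCS1, IDI1 and DHCR7 held 0. Because of that choice, a CCAAT box in the printed window of all 5 genes says nothing about the direction of their changes. The part of these motifs in the changes was not tested.

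Levels are the authors' RMA values in log2 units, so a difference of 1 is a doubling, and they are compared as expression only within a gene, since the probes of different genes are not on a common scale. As the brightness of the rows by which the genes were chosen, the mean over the 9 arrays was 10.48 for SQLE and 7.61 for IDI1, with DHCR7 at 9.25, MSMO1 at 9.20, EBP at 8.28, ACAT2 at 8.27 and HMGCS1 at 8.01. These values lay between percentiles 75.3 and 98.2 of the named genes. All 7 passed the limit under which the dimmest 25% of genes were left out (4.50). Brightness does not by itself mark off the 7, because the rows of LBR (9.49) and NSDHL (9.32), enzymes of the same pathway that are not among them, lay inside their range. The rows of another 5 enzymes lay just below that range or lower, from 6.01 for TM7SF2 to 7.12 for PMVK.

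Epithelial markers of the colon were present, in keeping with the labelled line: 10 of 12 listed markers had a named row, 0 of them under the dim limit, with EPCAM at 11.23 and KRT20 at 11.29. Their summed linear signal was 11890 to 12600 in extract arrays, 12730 to 13130 in carnosic acid arrays and 12570 to 13080 in untreated arrays, a sum that bright rows such as KRT18 (12.32) dominate. Read gene by gene, 2 of the 10 were higher and 5 lower with the extract than in untreated cells at a limma adjusted p under 0.05 (median difference -0.20), and 2 were higher and 4 lower with carnosic acid (median -0.11). Over all genes tested the shares were 21.8% higher and 16.3% lower with the extract, and 12.9% and 6.12% with carnosic acid. Of 3 named fibroblast markers 2 were under the dim limit in every group, with sums of 80.9 to 87.2 in extract, 81.0 to 87.4 in carnosic acid and 83.9 to 101.2 in untreated arrays. Of 8 named hepatocyte markers 4 were under it in extract arrays, 4 in carnosic acid arrays and 5 in untreated arrays, with sums of 206 to 227 in extract, 215 to 234 in carnosic acid and 222 to 250.0 in untreated arrays. The 5 named leukocyte markers summed to 5571 to 5715 in extract arrays, 5710 to 6246 in carnosic acid arrays and 5751 to 6068 in untreated arrays. The bright row of LYZ, at a mean level of 12.32, dominates this sum. CD68 was at 8.98, and CSF1R (5.55), NKG7 (5.38) and CD14 (4.78) were nearer to the dim limit of 4.50. The leukocyte marker PTPRC had no named row. The part of these markers in the results for the 7 enzymes was not tested. In bulk RNA, fewer cells of a type and less RNA per cell cannot be told apart.

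With rosemary extract, all 7 enzymes differed from untreated cells, but not in 1 direction. HMGCS1, IDI1, SQLE and MSMO1 were called higher and ACAT2, EBP and DHCR7 were called lower, where a call is a limma adjusted p under 0.05 over the 11163 genes tested. That made 4 higher and 3 lower calls of 7. Of all genes tested, 21.8% were called higher and 16.3% lower. Extract arrays did not overlap untreated arrays in any of the 7, and 46.7% of all genes were apart in this way. The median change of the 7 was 0.20, against -0.018 over all genes.

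With carnosic acid, the same 4 enzymes were called higher than in untreated cells. ACAT2 was called lower, and EBP and DHCR7 were not called. Of all genes tested, 12.9% were called higher and 6.12% lower. Carnosic acid arrays stood apart from untreated arrays in 5 of the 7, against 32.8% of all genes. The median change of the 7 was 0.41, against -0.011 over all genes. Both comparisons use the same 3 untreated arrays, so the values for the members stand side by side below and their likeness is not a result.

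**Figure D1:**
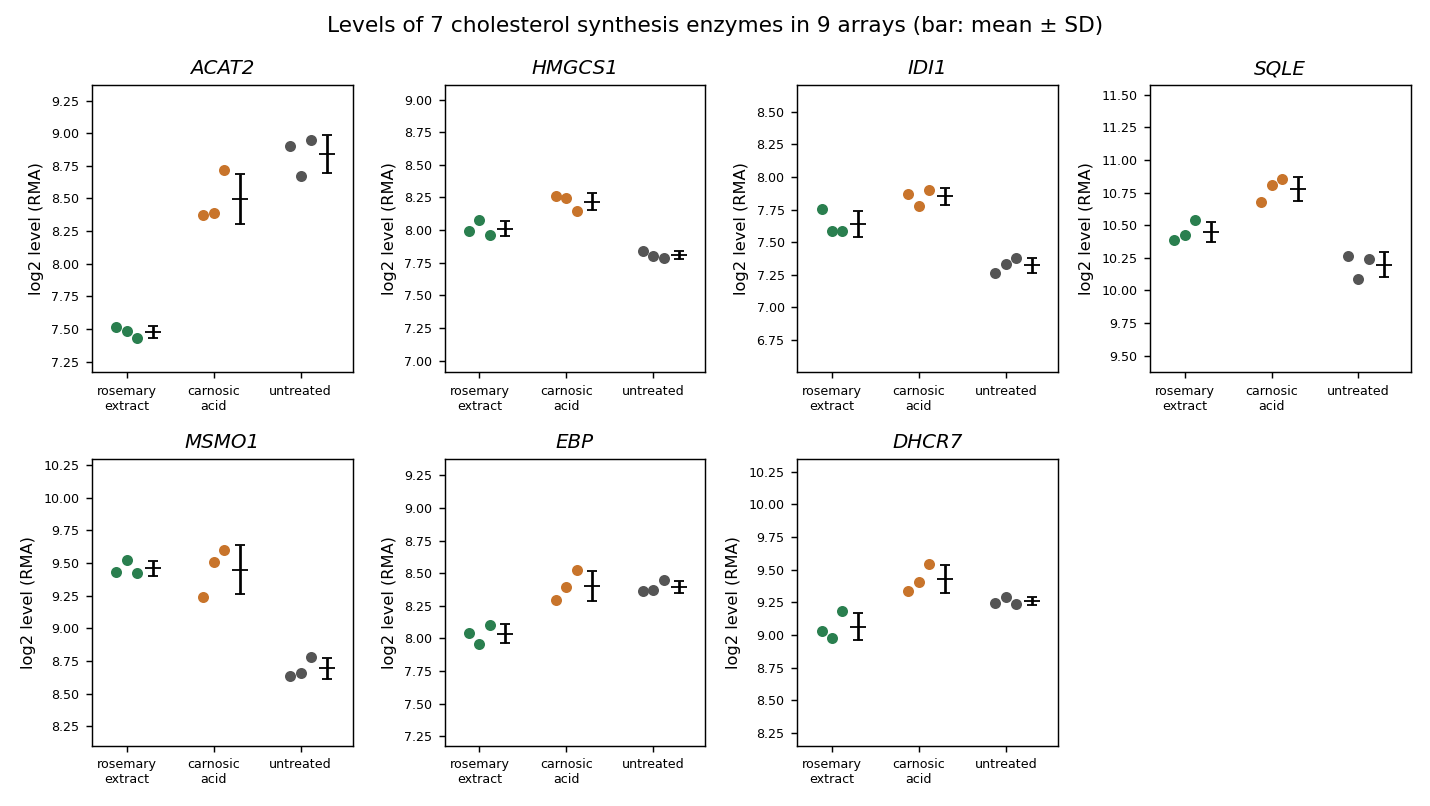
RMA levels (y axis, log2) of the 7 enzymes in the 3 arrays of each group (points, x axis: rosemary extract, carnosic acid, untreated), with the mean and SD of each group as a bar; every panel spans the same number of log2 units. ACAT2 sits lowest in extract arrays (7.43 to 7.52), MSMO1 sits high in both treated groups, and EBP and DHCR7 are lowest in extract arrays.

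ACAT2 encodes the cytosolic acetyl-CoA acetyltransferase, which joins acetyl-CoA molecules at the start of the pathway. Its log2 level was 7.52, 7.48 and 7.43 in extract arrays, 8.38, 8.39 and 8.71 in carnosic acid arrays, and 8.90, 8.67 and 8.95 in untreated arrays. The 3 extract arrays lay far below the other 6, while the highest carnosic acid array overlapped the lowest untreated array. ACAT2 fell with the extract, by a log2 difference from untreated cells of -1.36 (95% interval -1.58 to -1.15, adjusted p = 8.35e-07), which is 2.57-fold lower. With carnosic acid the difference was -0.35 (-0.56 to -0.13, adjusted p = 0.0308). That call was lost in 7 of 20 other settings, among them without untreated replicate 1 or 3 and without carnosic acid replicate 1 or 2, where the adjusted p lay between 0.0971 and 0.126.

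HMGCS1 encodes the cytosolic HMG-CoA synthase, which works directly after ACAT2 in the pathway. Levels were 8.00, 8.07 and 7.96 in extract arrays, 8.26, 8.25 and 8.15 in carnosic acid arrays, and 7.84, 7.80 and 7.78 in untreated arrays. The 3 groups did not overlap, with carnosic acid arrays highest and extract arrays between. The difference from untreated cells was 0.20 with the extract (0.066 to 0.34, adjusted p = 0.0228) and 0.41 with carnosic acid (0.27 to 0.55, adjusted p = 0.000873). The call with the extract was lost in 8 of 20 other settings, among them without untreated replicate 2 (adjusted p = 0.0508) or 3 (0.0563) and without extract replicate 1 (0.0518) or 2 (0.0985).

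IDI1 encodes isopentenyl-diphosphate isomerase, which interconverts the activated isoprene units used to build longer chains. It stood at 7.76, 7.58 and 7.58 in extract arrays, 7.87, 7.78 and 7.90 in carnosic acid arrays, and 7.26, 7.33 and 7.38 in untreated arrays. Every treated array was above every untreated array. IDI1 rose by 0.32 with the extract (0.16 to 0.48, adjusted p = 0.00458) and by 0.53 with carnosic acid (0.37 to 0.69, adjusted p = 0.000506).

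The gene for squalene epoxidase, SQLE, covers the first oxygen-using step of sterol synthesis. Its levels were 10.39, 10.42 and 10.54 in extract arrays, 10.68, 10.81 and 10.85 in carnosic acid arrays, and 10.26, 10.09 and 10.24 in untreated arrays. The groups were again ordered without overlap, carnosic acid above extract above untreated. SQLE rose by 0.25 with the extract (0.11 to 0.40, adjusted p = 0.0100) and by 0.58 with carnosic acid (0.44 to 0.73, adjusted p = 0.000128).

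MSMO1 encodes methylsterol monooxygenase 1, which helps to remove methyl groups from the sterol ring. It was measured at 9.43, 9.52 and 9.42 in extract arrays, 9.24, 9.51 and 9.60 in carnosic acid arrays, and 8.63, 8.66 and 8.78 in untreated arrays. The 6 treated arrays were all above the 3 untreated arrays and the treated groups overlapped each other. MSMO1 rose 1.70-fold with the extract (log2 0.77, 0.58 to 0.95, adjusted p = 2.54e-05) and 1.69-fold with carnosic acid (log2 0.76, 0.57 to 0.94, adjusted p = 0.000132).

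EBP encodes the sterol isomerase that moves the ring's double bond late in the pathway. EBP levels were 8.04, 7.96 and 8.10 in extract arrays, 8.29, 8.39 and 8.52 in carnosic acid arrays, and 8.37, 8.37 and 8.45 in untreated arrays. Extract arrays lay below all others, and carnosic acid and untreated arrays overlapped. EBP fell by 0.36 with the extract (-0.52 to -0.20, adjusted p = 0.00185). With carnosic acid the difference was 0.0068 (-0.15 to 0.16, adjusted p = 0.962), an interval that leaves room for a small change in either direction.

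DHCR7 encodes the reductase that turns 7-dehydrocholesterol into cholesterol, the last step of a branch of the pathway. The log2 levels were 9.03, 8.98 and 9.18 in extract arrays, 9.33, 9.41 and 9.55 in carnosic acid arrays, and 9.25, 9.29 and 9.24 in untreated arrays. Extract arrays were lowest, untreated arrays between and carnosic acid arrays highest, with no overlap. DHCR7 fell with the extract by a log2 difference of -0.19 (-0.35 to -0.042, adjusted p = 0.0451). With carnosic acid it differed by 0.17 (0.018 to 0.32, adjusted p = 0.115), which was not called. The call with the extract was lost in 10 of 20 other settings, with adjusted p up to 0.175. Among these were the settings without any 1 of the 3 untreated arrays, without extract replicate 1 or 2 and without carnosic acid replicate 2 (0.0632 to 0.175).

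**Figure D2:**
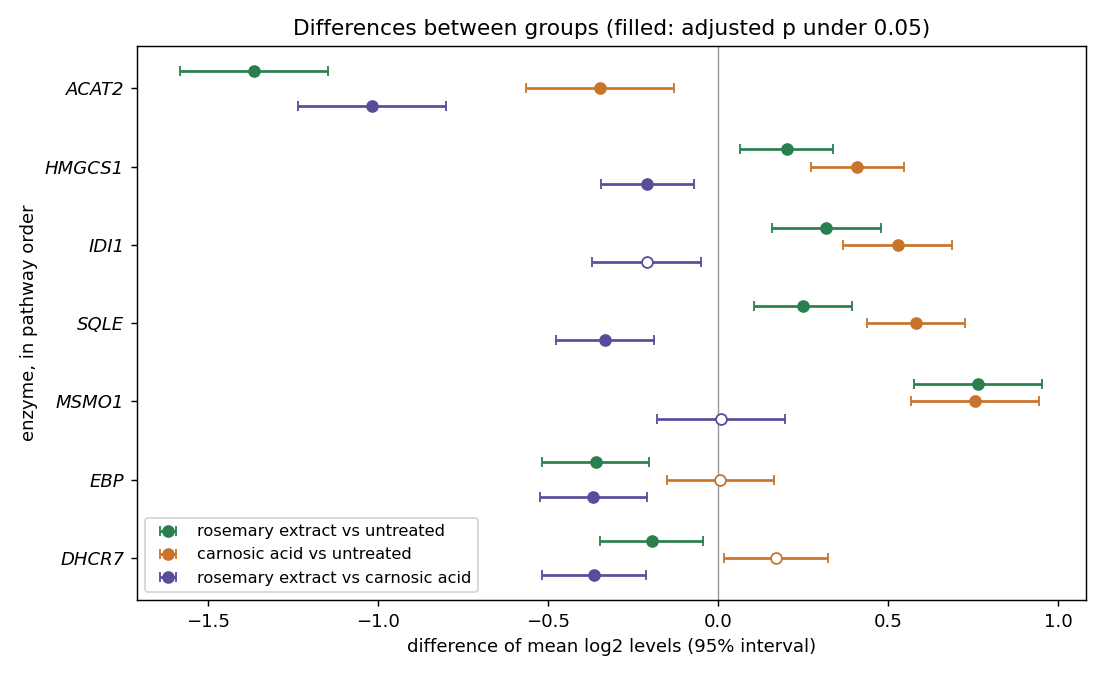
Differences of mean log2 levels (x axis, points with 95% intervals) for the 7 enzymes in pathway order (y axis) in the 3 comparisons, filled where the adjusted p is under 0.05. HMGCS1, IDI1, SQLE and MSMO1 lie right of 0 against untreated cells under both treatments, ACAT2 lies left of 0 under both, and EBP and DHCR7 lie left of 0 with the extract.

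Rosemary extract was then set directly against carnosic acid. Since no concentration is given, this compares the treatments as they were applied and not at a matched dose. Of the 7 enzymes, 0 were higher and 5 were lower with the extract: ACAT2, HMGCS1, SQLE, EBP and DHCR7. At an unadjusted limma p under 0.05 the counts were 0 higher and 6 lower. Of all genes, 8.24% were called higher and 9.07% lower in this comparison. Extract arrays were apart from carnosic acid arrays in 6 of the 7, against 31.8% of all genes, and the median difference of the 7 was -0.33, against 0.012 over all genes.

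ACAT2 averaged 7.48 ± 0.044 in extract arrays and 8.49 ± 0.19 in carnosic acid arrays (SD, n = 3 each), a log2 difference of -1.02 (-1.23 to -0.80, adjusted p = 2.97e-05). EBP averaged 8.04 ± 0.072 with the extract and 8.40 ± 0.115 with carnosic acid, a difference of -0.37 (adjusted p = 0.00412). For DHCR7 the difference was -0.36 (-0.52 to -0.21, adjusted p = 0.00349). These 3 are the enzymes that were lower with the extract than in untreated cells. Both comparisons use the same 3 extract arrays, so this likeness is not a result.

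SQLE averaged 10.45 ± 0.079 with the extract and 10.78 ± 0.093 with carnosic acid, a difference of -0.33 (adjusted p = 0.00438). HMGCS1 differed by -0.21 (-0.34 to -0.072, adjusted p = 0.0403), a call that was lost in 10 of 20 other settings, among them without any 1 of the 3 extract arrays and without carnosic acid replicate 1 or 2 (0.0565 to 0.125). IDI1 differed by about as much (-0.21, -0.37 to -0.049) and was not called (adjusted p = 0.0764), though it was called without extract replicate 1 (0.0471). MSMO1 differed by 0.0096 (-0.18 to 0.20, adjusted p = 0.963) and without 1 array this difference took either sign (-0.096 to 0.084).

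Correlations among the members over the 9 arrays are given as a description, since the points share their group means. HMGCS1, IDI1, SQLE and MSMO1 correlated with each other at r = 0.774 to 0.895. ACAT2 correlated with EBP at 0.927 and with DHCR7 at 0.683, and EBP with DHCR7 at 0.881. ACAT2 and MSMO1 ran against each other (r = -0.634). Deviations from the group means rest on 3 arrays per group and are small, with an SD of 0.028 to 0.063 for HMGCS1. Their correlations therefore cannot settle whether a set holds together. Once each array was set against its group mean, r within the first of these sets took either sign. HMGCS1 then had r = -0.447 with IDI1, -0.444 with SQLE and -0.406 with MSMO1, IDI1 had -0.332 with SQLE and 0.025 with MSMO1, and SQLE had 0.545 with MSMO1. On the same footing r was 0.651 for ACAT2 with EBP, 0.312 for ACAT2 with DHCR7, 0.837 for EBP with DHCR7, 0.612 for ACAT2 with MSMO1, -0.927 for HMGCS1 with EBP and -0.871 for HMGCS1 with DHCR7.

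By the same measure, the 2 genes whose levels over the 9 arrays were most like those of ACAT2 were EXOSC9 (r = 0.996), which encodes a subunit of the RNA exosome, and ARHGAP11A (0.996). ARHGAP11A was at 8.47, 8.44 and 8.34 in extract arrays, 9.70, 9.85 and 10.08 in carnosic acid arrays, and 10.27, 10.05 and 10.47 in untreated arrays, the same order of groups as ACAT2. For MSMO1 they were IGFL4 (0.991) and KDELR1 (0.988), a receptor that returns proteins to the endoplasmic reticulum. For IDI1 they were FHDC1 (0.988) and STARD4 (0.968), a sterol carrier protein. SQLE was nearest to STIM2 (0.977), a calcium sensor of the endoplasmic reticulum, and TBX3 (0.974). HMGCS1 was nearest to TSHZ2 (0.972) and MTSS1 (0.963), EBP to URB2 (0.992) and TCF19 (0.985), and DHCR7 to RIBC2 (0.978) and ACD (0.974). With each array set against its group mean, r of these 14 pairs ranged from 0.537 for HMGCS1 with TSHZ2 to 0.974 for DHCR7 with ACD. The pairs were picked for the highest r over the same 9 arrays, which hold these deviations. High values here follow in part from that choice and are not a check of the likeness.

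The rest of the pathway was covered in part. Of 16 other enzymes listed, 7 had a usable row, 2 were dim (IDI2 and HSD17B7) and 7 had no named row. With the extract 0 of these 7 were called higher and 2 were called lower by limma, with 1 higher and 2 lower at an unadjusted p under 0.05, and their median difference was -0.063. The shares over all genes tested were 21.8% called higher and 16.3% called lower. LBR, the lamin B receptor with sterol reductase activity, was at 9.24, 9.10 and 9.08 in extract arrays, 9.50, 9.55 and 9.65 in carnosic acid arrays, and 9.65, 9.77 and 9.84 in untreated arrays. Extract arrays were lowest. Carnosic acid and untreated arrays were only barely apart, with the highest carnosic acid array at 9.6465 and the lowest untreated array at 9.6483. LBR fell by 0.61 with the extract (adjusted p = 2.25e-05), and with carnosic acid its difference of -0.19 was not called (adjusted p = 0.0749).

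FDPS, the farnesyl diphosphate synthase, fell by 0.41 with the extract (adjusted p = 0.0285). The groups stood narrowly apart, with 6.92, 6.53 and 6.68 in extract arrays and 7.20, 6.96 and 7.20 in untreated arrays, and the call was lost without untreated replicate 1 or 3 and without extract replicate 2 or 3 (adjusted p of 0.0707 to 0.123). MVK, PMVK, MVD, TM7SF2 and NSDHL were not called under either treatment, with differences between -0.17 and 0.23. NSDHL, which works beside MSMO1 in removing methyl groups, differed by 0.23 with the extract (adjusted p = 0.0788) and by 0.21 with carnosic acid (adjusted p = 0.154). With carnosic acid 0 of the 7 other enzymes were called in either direction by limma, with 1 higher and 1 lower at an unadjusted p under 0.05, and between the treatments only LBR was called (-0.42, adjusted p = 0.00114).

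**Figure D3:**
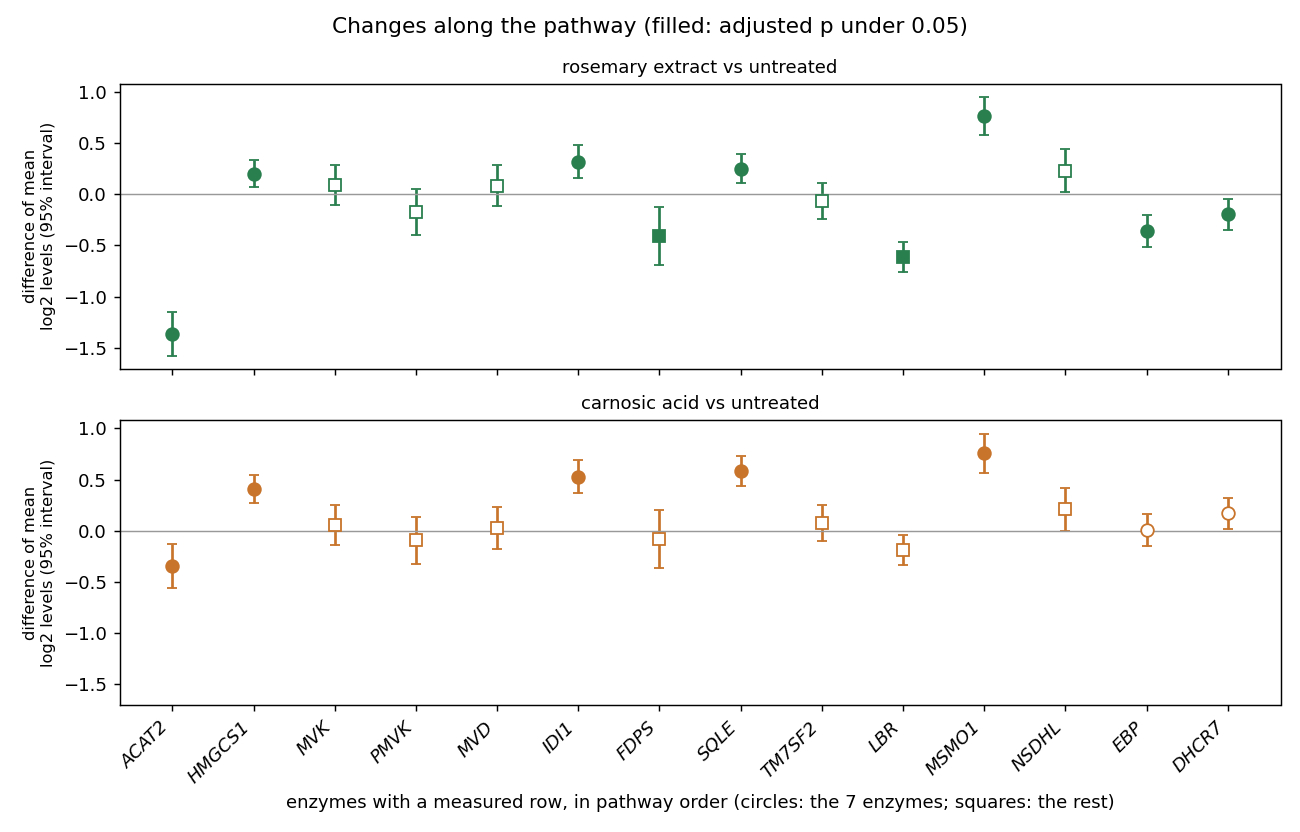
Differences from untreated cells of the enzymes with a usable row (x axis, in pathway order; circles mark the 7 enzymes described, squares the other 7) as log2 units with 95% intervals (y axis), filled where the adjusted p is under 0.05. With carnosic acid the filled symbols are 5 of the 7 circles and none of the squares. The circles were chosen with earlier results of these data known, so this split is not a result. With the extract all 7 circles, FDPS and LBR are filled. ACAT2 is lowest in both panels, and MSMO1 is highest in both.

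Genes listed for sterol sensing and its control, which are not all sensors themselves, gave a mixed picture as well. Of 12 with a usable row, 5 were called higher and 3 lower with the extract, and 3 higher and 1 lower with carnosic acid. At an unadjusted limma p under 0.05 the counts with carnosic acid were 4 higher and 3 lower. Over all genes tested, 21.8% were called higher and 16.3% lower with the extract, and 12.9% and 6.12% with carnosic acid. The same shares stand beside the counts of the uptake, storage and isoprene lists below. INSIG1, which holds back SCAP and is itself a target of SREBP-2, was at 8.60, 8.48 and 8.26 in extract arrays, 8.53, 8.52 and 8.47 in carnosic acid arrays, and 7.84, 7.77 and 7.57 in untreated arrays. All treated arrays were above all untreated arrays. INSIG1 rose by 0.72 with the extract (adjusted p = 8.32e-05) and by 0.78 with carnosic acid (adjusted p = 0.000201).

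STARD4, which carries sterol between membranes, was at 7.93, 7.82 and 7.62 in extract arrays, 8.14, 7.95 and 8.13 in carnosic acid arrays, and 7.19, 7.17 and 7.09 in untreated arrays. It rose by 0.64 with the extract (adjusted p = 0.000147) and by 0.92 with carnosic acid (adjusted p = 5.04e-05). TMEM97, a sterol-binding membrane protein that is also a target of SREBP-2, took the order seen for ACAT2. It was at 8.48, 8.34 and 8.71 in extract arrays, 9.37, 9.65 and 9.75 in carnosic acid arrays, and 9.98, 9.95 and 9.92 in untreated arrays, with no overlap between groups. TMEM97 fell by 1.44 with the extract (adjusted p = 8.40e-07) and by 0.36 with carnosic acid (adjusted p = 0.0332), a call that was lost without any 1 of the 3 untreated arrays and without carnosic acid replicate 1 or 2 (0.0539 to 0.128). RNF145, an endoplasmic reticulum ubiquitin ligase, fell by 0.47 with the extract (adjusted p = 0.00206) and its difference of -0.27 with carnosic acid was not called (adjusted p = 0.0697).

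Of 6 uptake and transport genes with a usable row, 3 were called higher and 1 lower with the extract, and 3 higher and 0 lower with carnosic acid (1 lower at an unadjusted p under 0.05). The lipoprotein receptor VLDLR was at 7.73, 7.90 and 7.54 in extract arrays, 6.53, 6.53 and 6.48 in carnosic acid arrays, and 4.87, 4.99 and 5.27 in untreated arrays. It rose by 2.68 with the extract (adjusted p = 3.29e-08) and by 1.48 with carnosic acid (adjusted p = 1.19e-05). LRP1, another receptor of that family, rose by 1.58 with the extract and by 1.25 with carnosic acid. OSBP, which exchanges sterol at membrane contacts, rose by 0.50 with the extract and by 0.27 with carnosic acid, where its call was lost without untreated or carnosic acid replicate 1 or 2 (adjusted p of 0.0551 to 0.0801). GRAMD1B, a sterol transporter at contacts with the plasma membrane, fell by 0.98 with the extract (adjusted p = 4.33e-06) and was not called with carnosic acid (-0.24, adjusted p = 0.0821).

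Of 6 storage and efflux genes with a usable row, 1 was called higher and 1 lower with the extract, and 2 higher and 0 lower with carnosic acid (0 lower at an unadjusted p under 0.05 as well). NCEH1, a cholesteryl ester hydrolase, rose by 0.60 with the extract and by 0.80 with carnosic acid. LPCAT3, which remodels phospholipids, rose by 0.29 with carnosic acid (adjusted p = 0.00654) and differed by 0.12 with the extract (adjusted p = 0.150). MYLIP, the ubiquitin ligase that marks lipoprotein receptors for breakdown, fell by 0.29 with the extract (adjusted p = 0.0313) and differed by 0.19 with carnosic acid (adjusted p = 0.194). The call with the extract was lost without untreated replicate 1 or 3 and without extract replicate 2 or 3 (0.0629 to 0.138). The cholesterol acyltransferase SOAT2 was not called under either treatment.

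Isoprene units also feed other products. Of 5 genes of those branches with a usable row, 2 were called higher and 1 lower with the extract, and 3 higher and 0 lower with carnosic acid (0 lower at an unadjusted p under 0.05 as well). DHDDS and NUS1, the subunits of the enzyme that makes dolichol chains, rose by 0.97 and 0.35 with the extract and by 0.51 and 0.25 with carnosic acid. The call of NUS1 with carnosic acid (adjusted p = 0.0456) was lost in 7 of the 9 settings that left out 1 array, all but those without untreated replicate 2 or carnosic acid replicate 2 (0.0501 to 0.170). ICMT, which methylates prenylated proteins, fell by 0.24 with the extract (adjusted p = 0.0289) and rose by 0.28 with carnosic acid (adjusted p = 0.0269), and the direct difference between the treatments was -0.53 (adjusted p = 0.000733). Its call was lost with the extract without untreated replicate 1 or 3 and without extract replicate 1 or 2 (0.0669 to 0.113), and with carnosic acid without untreated replicate 1 or 2 and without carnosic acid replicate 3 (0.0632 to 0.0894). Of the mitochondrial counterparts of the early enzymes, ACAT1 was not called under either treatment, and OXCT1, a ketone body enzyme, rose by 0.34 with carnosic acid (adjusted p = 0.0158). With carnosic acid replicate 3 left out it was no longer called (adjusted p = 0.0543), and with the mean of the gene's rows in place of the brightest row the difference was 0.18 (adjusted p = 0.129).

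**Figure D4:**
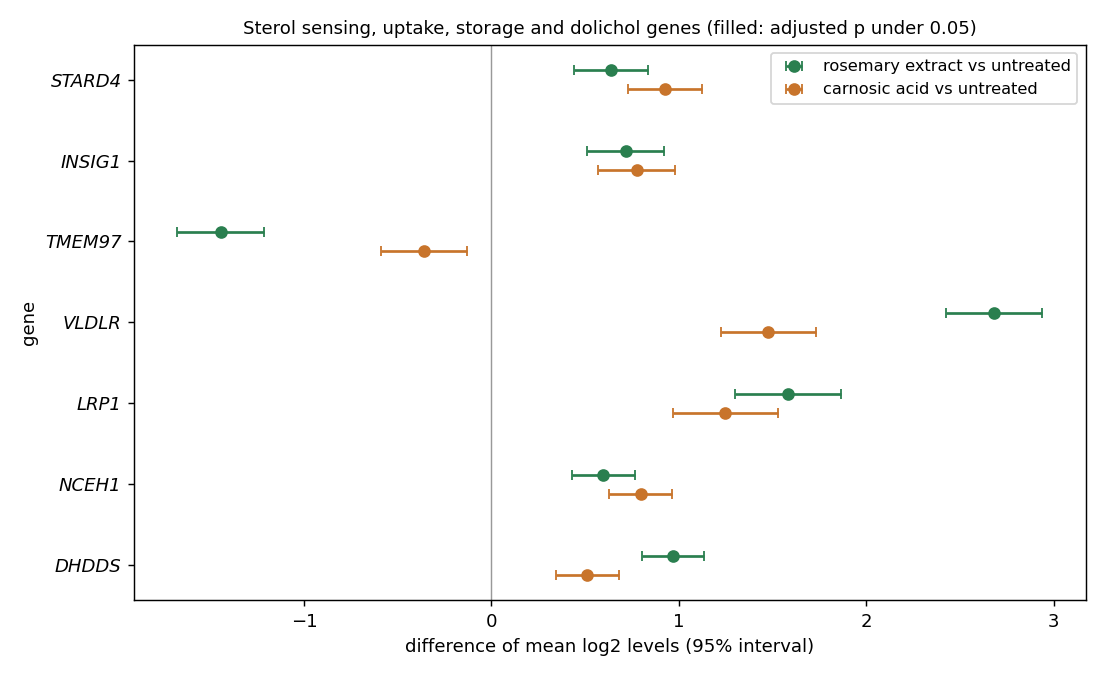
Differences from untreated cells (x axis, log2 units with 95% intervals) for 7 genes of sterol sensing, uptake, storage and dolichol synthesis (y axis), with rosemary extract above carnosic acid for each gene. The 7 were picked from the named genes without a rule, so the figure does not show how many genes of these lists rose or fell. TMEM97 is the only gene of the 7 left of 0, and VLDLR has the largest difference of those drawn (2.68 with the extract). Not drawn are GRAMD1B, RNF145, MYLIP and ICMT, which were called lower with the extract, and OSBP and NUS1, which were called higher.

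Genes that overlap or adjoin the 7 enzymes in RefSeq were read for shared signal, since the labels do not say how the probes of a row separate overlapping genes. WDR37 overlaps IDI1 and was called higher under both treatments, by 0.68 with the extract (adjusted p = 0.000103) and by 0.49 with carnosic acid (adjusted p = 0.00305). Its part in the IDI1 values was not tested. WASHC5, which lies within 10 kb of SQLE, rose by 0.29 with the extract (adjusted p = 0.00237) and was not called with carnosic acid (0.16, adjusted p = 0.0895). WTAP beside ACAT2, NIM1K beside HMGCS1, and NADSYN1 and ACTE1P beside DHCR7 were not called under either treatment. TCP1 and SOD2, which overlap ACAT2, had no named row.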

How the data were processed

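Total RNA of 9 HT-29 cultures was hybridised to Affymetrix GeneChip ST arrays, 3 arrays in each of 3 groups given by the labels. The deposited values are log2 expression values that the authors made with RMA in the oligo package of R, per the labels; the log2 scale was read from the values, and tool versions and the annotation's build are not given in the sources used. RMA gives no detection call and compresses large differences. Array medians lay between 4.82 and 4.90 over 53617 rows.

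Rows were named through the platform annotation: 16098 had 1 symbol, 0 had several and 37519 had none. Entrez identifiers of all 16098 matched RefSeq. The brightest row of each of 14884 genes was kept, and the 3721 genes under a mean of 4.50 were left out. Group means were fitted to all 9 arrays with limma 3.58.1 in R 4.3.3 (lmFit, then eBayes with its trend option, two-sided, leaving 6 residual degrees of freedom), with Benjamini-Hochberg adjustment over 11163 genes. The code of the fit was tried on simulated data with independent noise and few changed genes. That says nothing about the share of false calls in these data. Promoter letters were searched in RefSeq windows of 300 bases, in the 250 before each start. Other settings changed the normalization, the filter, the choice of row, the trend, the arrays fitted and the replicate block, or left out 1 array.

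Members and lists were chosen with earlier results of these data known. Named genes are the 7 members, all other usable enzymes of the pathway, up to 4 genes with the smallest p of each other list, the 2 genes most like each member over the 9 arrays, and neighbours within 10 kb. Uncharacterised loci, antisense and small RNAs were left out of the search for the genes most like a member. EPCAM, KRT18, KRT20, LYZ, CD68, CSF1R, NKG7 and CD14 were named after their values were seen. The number of arrays limits the precision.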

Additional observations from a re-analysis of the deposited data

How the results depend on the processing

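Over 20 other settings, 14 of the 21 differences of the members kept their direction and their side of the threshold in all 20, and 7 did not in some. The counts with the extract against untreated cells stayed at 3 or 4 higher and 2 or 3 lower. With carnosic acid against untreated cells 4 were higher in all 20, but the single lower call, ACAT2, became 0 with median centring, over all rows of the array and with only the 6 arrays compared, and was 0 to 1 when 1 array was left out. Between the treatments 0 were higher and 4 to 6 were lower.

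Over all rows of the array 7230 were called with the extract, against 4256 genes in the main setting; more rows were tested. Leaving out 1 array gave 3493 to 4237 genes with the extract, 1385 to 2124 with carnosic acid (main 2123; 1385 without carnosic acid replicate 1) and 1289 to 1965 between the treatments (main 1933). EBP with carnosic acid against untreated cells, which was not called, changed sign under cyclic loess (-0.044) and, in settings chosen after seeing the data, under cyclic loess (-0.068) and median centring (-0.040) over the genes kept; without 1 array it ranged from -0.053 to 0.061. MSMO1 between the treatments ranged from -0.096 to 0.084 when 1 array was left out. The cause was not tested. The share of higher calls with carnosic acid was 67.8%, against 77.7% with median centring over all rows and, over the genes kept, 52.4% with median centring and 54.9% with cyclic loess.

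Replicate numbers do not pair the arrays: deviations of the 9 same-numbered pairs correlated at -0.22 to 0.24, and an array was nearest to its own number in 6 of 18 cases. With a replicate block the members' counts were 4 higher and 3 lower, 4 and 1, and 0 and 5, and 4226, 2194 and 1947 genes were called. Of 49 calls of the other named genes against untreated cells, 36 held in all settings, 13 were lost in some and 0 changed sign.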
